A study of Mus musculus with 42 samples.

Results

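The 3-day culture of uterine tissue-resident NK cells (trNK) that also had a STAT3 inhibitor arm was analysed for the effect of IL-21, across all expressed genes. The libraries were chosen by their labels: 2 without added IL-21 (− IL-21) and 2 with 20 ng/mL IL-21 (+ IL-21), 4 of the 42 samples of the series. In all, 6 libraries entered the fit, since the 2 libraries with IL-21 and the STAT3 inhibitor Stattic (iSTAT3, 1 µM per the labels, a dose whose unit the methods write differently) belong to the same experiment and lent their spread. All cells came from C57BL/6 wild-type mice, females 8 to 12 weeks old by the study's methods, and were live NK1.1+ lymphocytes in vitro per the labels. The study describes the starting cells as sorted trNK-V of gestation day 6.5 (gd6.5), trNK with low CD55 and 4-1BB, and its methods give IL-15 in the medium of every arm, so the − IL-21 libraries are cells kept in IL-15 and not untreated cells. The same 3 days of culture are given by the labels for the IL-21 arms and by the methods for the arm without it. How many animals or wells stand behind a library is not given in the sources used here, so p-values measure only the spread between these libraries, which may be technical.

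IL-21 is a cytokine of activated T helper cells that binds a receptor made of IL-21R and the common gamma chain. The receptor signals through JAK1 and JAK3 and mainly through STAT3, with STAT5 as a further arm. In NK cells and cytotoxic T cells IL-21 is known for raising cytotoxic granule proteins and effector cytokines. Uterine NK cells are abundant in the early decidua, where they act on blood vessels and on the invading trophoblast.

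The 4 libraries held 12189886 to 18704191 counts and 14003 to 15849 genes with a count. Mitochondrial genes took 0.913% to 1.89% of the counts. All markers of the sorted trNK were present: summed over Ncr1 (NKp46), Klrb1c (NK1.1), Itga1 (CD49a) and Eomes, the level was 977 and 873 RPKM without IL-21 and 331 and 360 RPKM with it. RPKM here are reads per kilobase of gene length, relative to library sizes scaled within the experiment. All 4 markers lay lower in both + IL-21 libraries than in both − IL-21 libraries, a pattern that 20.6% of all genes tested showed. None of the 4 markers passed the test. Cxcr6, whose product the series' labels give as absent from trNK sorted directly from the uterus, read 49.7 and 31.3 RPKM without IL-21 and 17.6 and 52.0 RPKM with it, and led a list of 13 markers of other innate lymphoid cells that summed to 26.7 to 71.6 RPKM, with 4 genes at 0. The 9 markers of circulating NK cells summed to 2490 and 2351 RPKM against 2594 and 1619 RPKM, above the trNK markers, with 0 genes at 0 in all 4 libraries. Sums over different genes do not measure cell numbers. Most of this was Klra4 and Klra8, and Klrg1 read 116 to 204 RPKM, while Itga2 (CD49b) read 1.70 to 3.59 RPKM. Others were near 0, with Itgam at 0.156 to 0.839 RPKM, S1pr5 at 0.991 RPKM or less and Cx3cr1 at 0.0317 RPKM or less. Of 15 T cell markers 4 were at 0 in all 4 libraries, among them Cd4, Cd8b1 and Cd5, while Cd3d (13.4 to 69.7 RPKM), Cd3g (14.8 to 53.2 RPKM), Trac and Trdc were present. Of 10 B cell markers 5 were at 0, among them Ms4a1. Adgre1, Csf1r and C1qa of macrophages and Col1a1, Dcn and Krt8 of stroma and epithelium were at 0, while the epithelial marker Epcam (9.15 to 22.9 RPKM) and the endothelial marker Pecam1 (16.5 to 45.3 RPKM) were present. The other endothelial markers listed went the other way, with Cdh5 at 0 and Kdr at 0.00527 RPKM or less. The epithelial markers Krt18 and Krt19 were at 0 as well. Summed macrophage markers gave 310 and 377 RPKM without IL-21 and 258 and 249 RPKM with it, of which most was Ccr2, and 10 of the 15 genes were at 0. Summed stroma markers gave 109, 130, 115 and 156 RPKM in the same order, most of it Vim, with 10 of 16 genes at 0. T cell markers gave 1329 and 1246 RPKM against 1105 and 1176 RPKM, led by the T cell receptor constant gene Trbc1. B cell markers gave 121 and 232 RPKM against 49.4 and 118 RPKM, led by Ighm. The part of such cells in the results was not tested. In bulk samples, fewer cells of a type and less RNA per cell cannot be told apart.

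A gene was tested where any arm had more than 10 RPKM in each of its libraries, which left 4159 genes. With a change of over 2-fold and an adjusted p under 0.05, 12 of them rose with IL-21 (0.289%) and 0 fell (0%). The 12 genes were the cytotoxic granule genes Gzmb and Prf1, the secreted factors Ifng and Spp1, the inhibitory receptor gene Ctla4, the G protein-coupled receptor gene Gpr18, the surface antigen gene Ly6a, the regulators Bcl3 and Gadd45g, and Hmox1, Pltp and Serpine2. Each of the 12 lay higher in both + IL-21 libraries than in both − IL-21 libraries, a pattern that 17.6% of all genes tested showed. The lowest adjusted p among genes with a lower level was 0.0524. DESeq2 on the same genes called 103 higher and 59 lower, and limma-voom 17 higher and 1 lower. Other settings ended calls: edgeR called 0 genes with the filterByExpr filter (378 higher and 236 lower at an unadjusted p under 0.05 and over 2-fold), 1 with RPKM above 1 and 1 with the replicate number as a block, in both cases Ctla4, and 8 in a fit of the 4 libraries alone, of which 4 (Ctla4, Gadd45g, Ifng and Prf1) were among the 12. Blocks chosen after seeing the data gave more calls, 316 (182 higher and 134 lower) in the 4 libraries alone and 225 (144 higher and 81 lower) with the iSTAT3 numbers crossed, so the 0 falls also depended on the fit. The edgeR count came to 2 without − IL-21 replicate 1, 7 without − IL-21 replicate 2, 6 without + IL-21 replicate 1, 19 (17 higher and 2 lower) without + IL-21 replicate 2 and 8 without 1 or the other iSTAT3 library, and Ctla4 was called each time a library was left out.

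**Figure D1:**
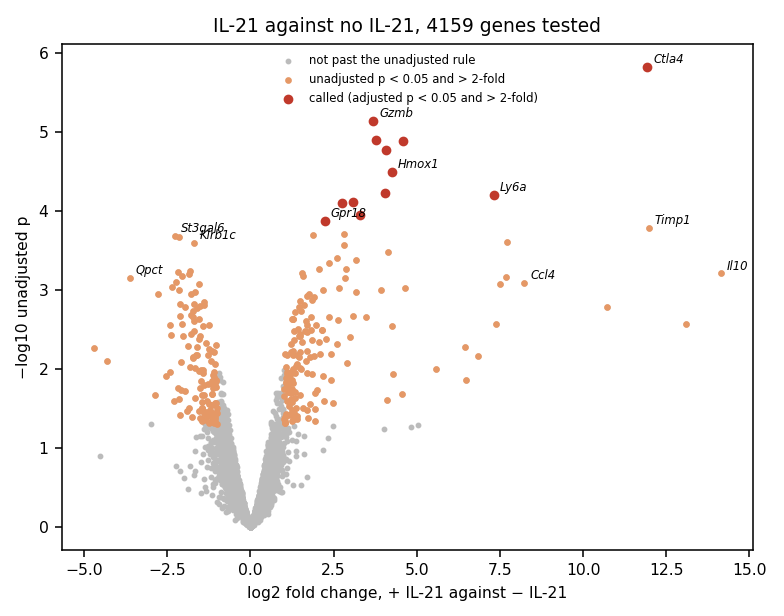
Each point is 1 of the 4159 genes tested, with the log2 fold change with IL-21 on the x axis and the −log10 of the unadjusted p on the y axis. Orange points have an unadjusted p under 0.05 and a change of over 2-fold, and the larger red points are the 12 genes that rose past the adjusted threshold, all of them on the higher side.

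By a looser rule, an unadjusted p below 0.05 with a fold above 2, 168 genes were higher (4.04%) and 129 lower (3.1%). This unadjusted rule is used here only to describe gene groups and to choose the sets set beside the other experiments. It does not correct for the number of genes tested. On RPKM without scaling, limma gave 125 higher and 209 lower by the same rule. Genes that meet it without passing the adjusted test are given as values and are not called changed.

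Ctla4 encodes CTLA-4, an inhibitory receptor that competes with CD28 for its ligands. Its level was 0.0204 and 0 RPKM in the − IL-21 libraries and 55.5 and 48.8 RPKM in the + IL-21 libraries. The − IL-21 libraries together held 1 Ctla4 read and the + IL-21 libraries 3051, a rate ratio of 4390 with a 95% counting interval of 787 to 173000. This interval covers counting error only. Its adjusted p was 0.00623, the lowest of all genes. The iSTAT3 libraries read 33.7 and 14.1 RPKM.

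Gzmb encodes granzyme B, the serine protease of cytotoxic granules that starts apoptosis in target cells. The 2 libraries without IL-21 read 2113 and 1586 RPKM and the 2 with it 21441 and 26631 RPKM. This was a log2 rise of 3.70 (SE 0.35, adjusted p = 0.0136), and the groups lay far apart. With the inhibitor the level was 12409 and 11916 RPKM, between the other arms. The gene lies on chromosome 14 at 56258838 to 56262260 (mm10, minus strand, as in the files). Prf1 encodes perforin, which forms the pore through which granzymes enter. It read 40.9 and 52.3 RPKM without IL-21 and 553 and 1020 RPKM with it, a log2 rise of 4.08 (SE 0.44, adjusted p = 0.0139). The iSTAT3 libraries stood between, at 236 and 154 RPKM.

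Ifng encodes interferon gamma, the effector cytokine of NK cells and in the decidua a regulator of spiral artery remodelling. Its level was 10.6 and 19.9 RPKM without IL-21 and 374 and 356 RPKM with it. The log2 rise was 4.58 (SE 0.47, adjusted p = 0.0136). In the iSTAT3 libraries it was 192 and 336 RPKM, nearer to the + IL-21 libraries than to the others. Spp1 encodes osteopontin, a secreted matricellular glycoprotein. Without IL-21 it read 2042 and 1173 RPKM and with IL-21 33329 and 19761 RPKM, above Gzmb in 1 of the 2 + IL-21 libraries. Its log2 rise was 4.05 (SE 0.52, adjusted p = 0.0325). The iSTAT3 libraries were at 3166 and 5843 RPKM.

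Ly6a encodes Sca-1, a GPI-anchored surface antigen of stem cells and activated lymphocytes. The − IL-21 libraries read 42.3 and 7.12 RPKM and the + IL-21 libraries 4997 and 2932 RPKM. After Ctla4 it had the largest rise of the 12, 7.33 on the log2 scale (SE 0.95, adjusted p = 0.0325). With the inhibitor it read 1132 and 1937 RPKM. Gpr18, a G protein-coupled receptor of lymphocytes, read 37.2 and 35.5 RPKM without IL-21 and 189 and 152 RPKM with it. Its rise of 2.23 (SE 0.32, adjusted p = 0.0467) was the smallest of the 12. Gpr18 was the only one of the 12 whose iSTAT3 libraries, at 14.8 and 17.3 RPKM, lay below both − IL-21 libraries.

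Gadd45g encodes a stress-inducible activator of a MAP kinase kinase kinase and in lymphocytes accompanies interferon gamma production. It read 52.7 and 47.3 RPKM without IL-21 and 612 and 766 RPKM with it (adjusted p = 0.0136). The iSTAT3 libraries, at 98.6 and 174 RPKM, lay between the other arms. Bcl3 encodes an atypical member of the IkB family that acts with NF-kB in the nucleus and is a known STAT3 target. Its level was 3.67 and 2.62 RPKM without IL-21 and 25.7 and 35.7 RPKM with it, a log2 rise of 3.29 (SE 0.46, adjusted p = 0.0419). With the inhibitor it was 9.43 and 10.3 RPKM.

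Hmox1 encodes heme oxygenase 1, which breaks down heme and is induced by oxidative and electrophilic stress. Its 4 values were 21.3 and 15.997 RPKM without IL-21 and 201 and 504 RPKM with it (log2 rise 4.24, SE 0.50, adjusted p = 0.0221). It was the 1 gene of the 12 whose iSTAT3 libraries lay above both + IL-21 libraries, at 2870 and 2964 RPKM. Pltp, a lipid transfer protein of plasma, read 3.93 and 3.91 RPKM without IL-21 and 27.3 and 39.6 RPKM with it. Serpine2, an inhibitor of serine proteases, read 6.72 and 7.32 RPKM without IL-21 and 58.5 and 36.8 RPKM with it. Both had an adjusted p of 0.0326. Their iSTAT3 libraries lay above both − IL-21 libraries, at 24.5 and 21.02 RPKM for Pltp and 46.0 and 33.0 RPKM for Serpine2.

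**Figure D2:**
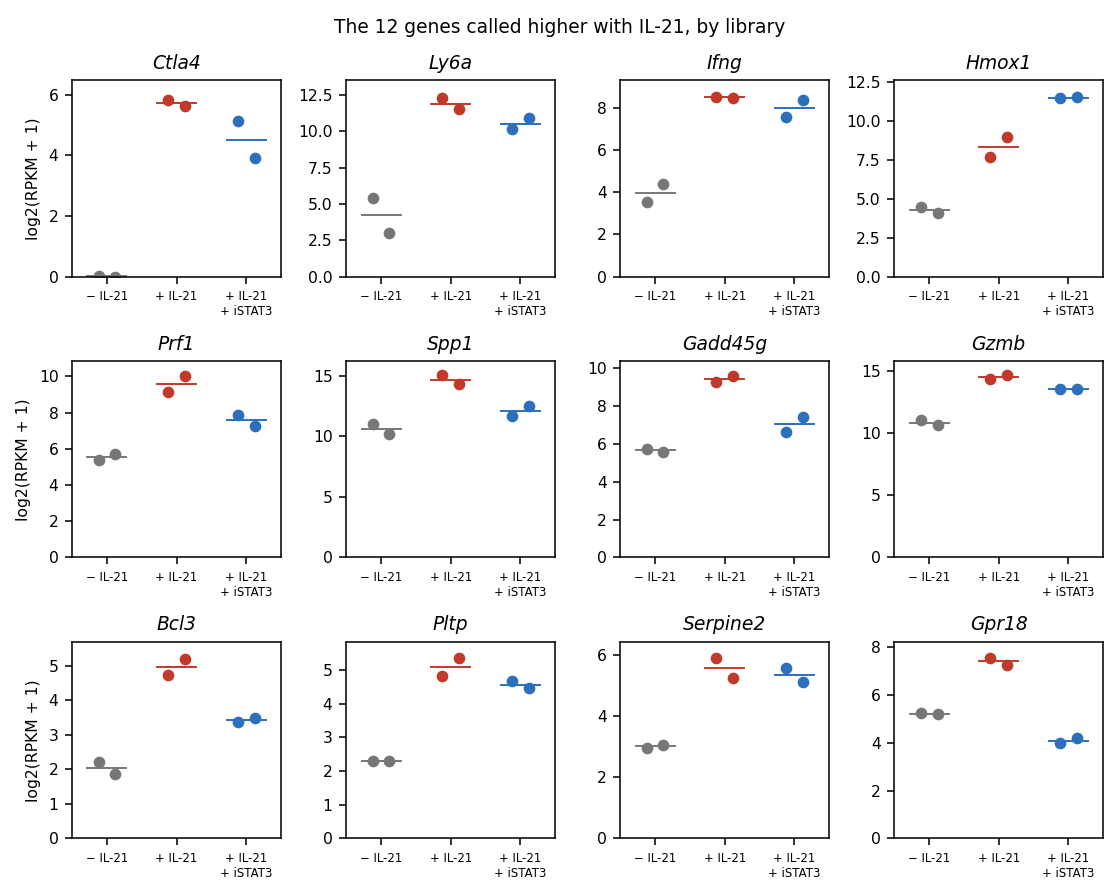
Level of each of the 12 genes that rose, as log2(RPKM + 1) on the y axis, with 1 point per library for − IL-21, + IL-21 and + IL-21 with iSTAT3 and a line at the mean. The − IL-21 and + IL-21 points of a gene do not overlap, and the iSTAT3 points lie above both other arms in Hmox1 and below both in Gpr18.

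The inhibitor libraries have no test of their own here, because any comparison of them would share libraries with the IL-21 comparison. For the 12 genes both iSTAT3 libraries read below both + IL-21 libraries in 10 (beside 23.6% of all genes tested) and above both − IL-21 libraries in 11 (beside 24.9%). The 12 were chosen for high values in the first of these arms and low values in the second, so both counts are descriptions. The iSTAT3 libraries also read far above both other arms in heat shock genes such as Hspa1b, at 651 and 474 RPKM against 0.106 to 2.26 RPKM. Hsph1 read 432 and 309 RPKM against 5.01 to 6.96 RPKM. The part of this difference in the other iSTAT3 values was not tested.

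STAT dimers are known to bind a palindrome of the letters TTCNNNGAA, and it was searched for in the 250 bases before and 50 bases after the annotated start of each gene (RefSeq, GRCm38.p6). The palindrome reads the same on both strands. Of the 12 genes that rose, 10 had a promoter in the table and 2 of these, Ifng and Gzmb, held it. Both promoters are shown with the match in capitals, together with that of Socs3, the classical STAT3 feedback gene, which was chosen after its values were seen. The windows are chr10:118440796-118441095 (plus strand) for Ifng, chr14:56262285-56262584 (minus strand) for Gzmb and chr11:117969317-117969616 (minus strand) for Socs3, each printed 5′ to 3′ on the strand of the gene.
Ifng: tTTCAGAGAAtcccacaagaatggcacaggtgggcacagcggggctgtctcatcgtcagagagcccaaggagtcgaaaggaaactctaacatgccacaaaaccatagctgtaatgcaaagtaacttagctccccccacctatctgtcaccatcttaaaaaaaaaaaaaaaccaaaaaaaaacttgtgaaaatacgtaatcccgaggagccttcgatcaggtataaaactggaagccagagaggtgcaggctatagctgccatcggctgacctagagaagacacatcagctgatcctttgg
Gzmb: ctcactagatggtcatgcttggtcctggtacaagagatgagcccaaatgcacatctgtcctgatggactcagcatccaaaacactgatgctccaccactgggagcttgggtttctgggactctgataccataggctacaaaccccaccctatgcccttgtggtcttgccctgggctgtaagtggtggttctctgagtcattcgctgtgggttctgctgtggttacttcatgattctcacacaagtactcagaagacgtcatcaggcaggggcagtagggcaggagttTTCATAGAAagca
Socs3: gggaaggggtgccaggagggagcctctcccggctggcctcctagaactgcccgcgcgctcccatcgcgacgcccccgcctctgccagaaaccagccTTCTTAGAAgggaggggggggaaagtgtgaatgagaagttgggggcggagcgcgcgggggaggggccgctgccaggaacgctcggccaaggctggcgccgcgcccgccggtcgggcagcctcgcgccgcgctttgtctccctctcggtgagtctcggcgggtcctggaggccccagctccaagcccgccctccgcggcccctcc
The match begins at −249 from the start in Ifng, at 38 bases past the start in Gzmb and at −154 in Socs3. RefSeq places the Gzmb start upstream of the gene as the files give it, and by the coordinates of the files this match lies outside the gene. Among all genes tested, 279 of 3134 with a promoter held the letters (8.9%). Of the genes higher by the unadjusted rule 9.52% held them, and of the genes lower 13.6%. The same half-sites with 4 free letters between them, in place of 3, were in 6.6% of all genes tested, in 6.35% of those higher and in 11.4% of those lower. A match is a description of letters and not a binding site.

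Of the granzyme and perforin genes, all 8 that were tested had both + IL-21 libraries above both − IL-21 libraries, beside 17.6% of all genes tested. Of the 8, 7 were higher by the unadjusted rule (beside 4.04%) and 2, Gzmb and Prf1, rose (beside 0.289%). The median log2 difference was 3.85, beside −0.02 over all genes tested. Summed, the granzyme genes took 0.478% to 0.482% of a library's counts without IL-21 and 3.88% to 4.7% with it. Gzma, a tryptase, read 282 and 1000 RPKM against 5121 and 2828 RPKM (adjusted p = 0.125). Gzmc read 1038 and 998 RPKM against 4970 and 4115 RPKM (adjusted p = 0.141). The remaining granzymes were low and uneven without IL-21. Gzme read 0.0519 and 7.58 RPKM against 213 and 660.2 RPKM (adjusted p = 0.208). Gzmd read 0 and 51.6 RPKM against 319.9 and 508 RPKM (adjusted p = 0.567). For Gzmg the − IL-21 libraries together held 1 read and the + IL-21 libraries 1385 (rate ratio 1990, counting interval 357 to 78700), with an adjusted p of 0.108. Gzmd, Gzme, Gzmf and Gzmg are near-identical neighbours on chromosome 14, so the split of reads between them is uncertain.

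**Figure D3:**
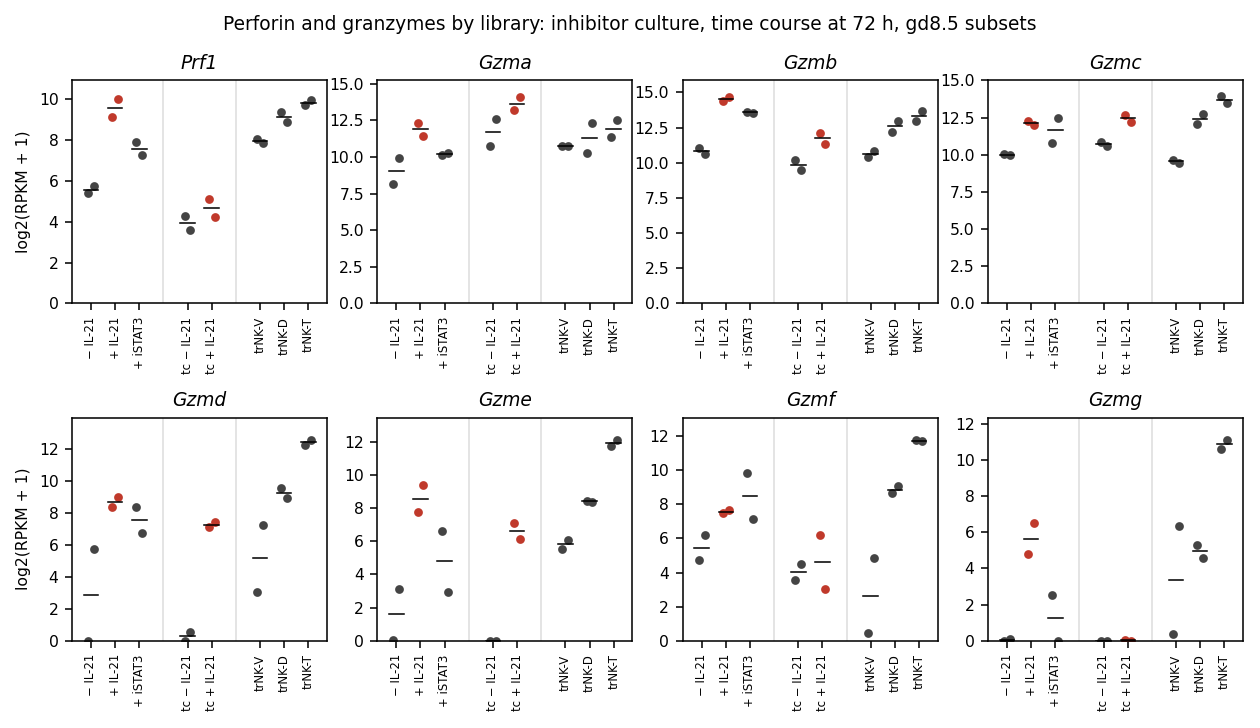
Perforin and 7 granzyme genes as log2(RPKM + 1), 1 point per library and a line at the mean, for − IL-21, + IL-21 and + IL-21 with iSTAT3 in the 3-day culture (left), for the 72 h arms of the time course (tc, middle) and for the gd8.5 subsets (right), each experiment on its own scale. In all 8 genes both + IL-21 points of the 3-day culture lie above both − IL-21 points, as in 17.6% of all genes tested.

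Of 13 genes tested that load, release or resist granules 0 passed the test, and the median was 0.30. By the unadjusted rule 2 were higher, beside 4.04% of all genes tested. The 2 were Serpinb9, the inhibitor that protects cells from their own granzyme B (76.6 and 33.2 against 143 and 138 RPKM, adjusted p = 0.279), and Rab27a, a GTPase of granule docking (7.59 and 10.8 against 17.8 and 19.5 RPKM, adjusted p = 0.514).

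Chemokine genes had the highest median of the lists among tested genes. Of 5 tested, 4 were higher by the unadjusted rule, beside 4.04% of all genes tested, and 0 passed the adjusted test. Ccl3 (MIP-1 alpha) read 4.47 and 1.49 RPKM without IL-21 and 1044 and 202 RPKM with it (adjusted p = 0.0556). Ccl4 (MIP-1 beta), which like Ccl3 attracts other leukocytes, read 27.4 and 11.1 RPKM against 8141 and 3496 RPKM (adjusted p = 0.0864). The + IL-21 libraries of Ccl3 differed from each other several times over, as did the iSTAT3 libraries of Ccl4 at 136 and 3522 RPKM. Ccl9 read 0 and 0.440 RPKM against 26.9 and 64.2 RPKM (adjusted p = 0.0824). Ccl5 (RANTES) read 959 and 499.8 RPKM against 2187 and 1881 RPKM (adjusted p = 0.150). Over the 5 tested the median was 7.69, but over all 8 chemokine genes with a count it was 0.55, since the expression filter keeps genes that are high in 1 arm.

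Of 7 cytokine and growth factor genes tested, Ifng and Spp1 rose and 3 others were higher by the unadjusted rule, which 4.04% of all genes met. Here too the filter keeps genes that are high in 1 arm, such as Il10 and Osm. The median was 3.91 over the 7 tested, but 0.46 over all 15 with a count. Il10, an anti-inflammatory cytokine and known STAT3 target, had no read in either − IL-21 library and 111 and 77.6 RPKM with IL-21, at least 847.1-fold higher against a floor of 3 reads per library (adjusted p = 0.0824). In the iSTAT3 libraries Il10 was at 0 and 1.49 RPKM. Osm, encoding oncostatin M, read 1.38 and 3.12 RPKM against 29.8 and 38.0 RPKM (adjusted p = 0.0905). Metrnl, a secreted factor, read 30.4 and 20.1 RPKM against 34.3 and 89.9 RPKM (adjusted p = 0.514). Ltb, encoding lymphotoxin beta, read 116 and 148 RPKM against 34.4 and 46.2 RPKM (adjusted p = 0.107).

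Among 16 known STAT3 targets tested, Gadd45g and Bcl3 rose, 8 were higher by the unadjusted rule and 0 were lower, with a median of 1.18. Of all genes tested, 0.289% rose, and 4.04% were higher and 3.1% lower by that rule. The list has 26 genes with a count, and the filter keeps those that are high in 1 arm, such as Il10 and Bcl3. The counts of higher and lower genes therefore do not describe the whole list. Its median over all 26 was slightly lower than over the 16. Besides Gadd45g and Bcl3, the 8 higher genes were Il10 and 5 further genes with smaller differences. Prdm1, the effector-cell transcription factor BLIMP-1, read 1.93 and 2.89 RPKM against 11.6 and 10.4 RPKM (adjusted p = 0.0905). Hif1a, the oxygen-sensitive transcription factor, read 5.82 and 5.66 against 17.2 and 21.6 RPKM (adjusted p = 0.0921). Cdkn1a, encoding the cell cycle inhibitor p21, read 34.3 and 24.8 against 91.4 and 74.5 RPKM (adjusted p = 0.103). The remaining 2 were the kinase gene Pim1, at 8.06 and 6.67 against 30.8 and 20.8 RPKM (adjusted p = 0.141), and the AP-1 family gene Batf, at 31.9 and 51.8 against 85.9 and 81.8 RPKM (adjusted p = 0.376). The classical feedback inhibitors did not separate the arms. Socs1 read 24.9 and 39.2 RPKM against 22.1 and 61.7 RPKM and Cish 10.5 and 16.4 RPKM against 6.86 and 15.2 RPKM, so their libraries overlapped. Socs3, below the expression filter, read 1.28 and 6.02 RPKM against 4.77 and 27.7 RPKM, which also overlapped. Irf4, another target on the list, did not reach the filter.

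Of 20 genes for cytokine receptors, JAKs and STATs that were tested, 0 passed the test, and the median was −0.01. By the unadjusted rule 2 were higher and 2 lower, beside 4.04% and 3.1% of all genes tested. Il21r, the specific chain of the receptor for IL-21, read 16.02 and 8.35 RPKM without IL-21 and 35.8 and 62.0 RPKM with it (adjusted p = 0.353), and 15.3 and 3.91 RPKM with the inhibitor. Il2ra, the alpha chain of the high-affinity IL-2 receptor, read 1.51 and 0.00868 RPKM against 14.8 and 11.3 RPKM (adjusted p = 0.406). Stat3 itself read 8.89 and 24.3 RPKM against 20.4 and 34.9 RPKM, with overlapping libraries. The lower 2 were Jak2 (14.7 and 9.85 against 6.11 and 4.98 RPKM, adjusted p = 0.502) and the interferon gamma receptor gene Ifngr1 (195 and 407 against 97.7 and 188 RPKM, adjusted p = 0.537).

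Of 12 checkpoint and costimulatory receptor genes tested, Ctla4 rose, 4 were higher by the unadjusted rule and 2 were lower. Of all genes tested, 0.289% rose, 4.04% were higher and 3.1% lower. Icos, a costimulatory receptor, read 51.6 and 42.6 RPKM against 150.5 and 130.3 RPKM (adjusted p = 0.0824). Cd38, an ectoenzyme that consumes NAD, read 15.7 and 19.8 RPKM against 52.0 and 62.5 RPKM (adjusted p = 0.0950). Havcr2, encoding TIM-3, read 0.0524 and 0.0182 RPKM against 12.98 and 0.857 RPKM (adjusted p = 0.0864), so that 1 of the + IL-21 libraries carried most of its difference. The lower 2 were the activating receptor Cd226 (DNAM-1), at 16.5 and 21.7 against 3.28 and 8.75 RPKM (adjusted p = 0.391), and Cd160, at 75.5 and 48.8 against 26.5 and 30.4 RPKM (adjusted p = 0.306). Of 9 TNF receptor and ligand genes tested 0 passed the test, 4 had a positive difference and the median was −0.46 (0.13 over all 14 with a count). By the unadjusted rule 2 were higher and 2 lower, beside 4.04% and 3.1% of all genes tested. The higher 2 were Tnfrsf9, encoding 4-1BB, at 257 and 191 against 602 and 367 RPKM (adjusted p = 0.343), and Tnfsf4, encoding OX40 ligand, at 37.9 and 38.9 against 98.1 and 81.0 RPKM (adjusted p = 0.201). The lower 2 were Tnfsf8, encoding CD30 ligand, at 24.7 and 28.9 against 5.88 and 11.6 RPKM (adjusted p = 0.204), and Cd27, at 25.3 and 27.5 against 12.2 and 8.76 RPKM (adjusted p = 0.476). Cd55, the other antigen that defines the trNK subsets, read 31.9 and 35.8 RPKM against 45.3 and 36.7 RPKM (adjusted p = 0.880).

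Of 27 NK receptor and adaptor genes tested 0 passed the test. By the unadjusted rule 0 were higher and 5 were lower, beside 4.04% and 3.1% of all genes tested. The median over the list was −0.06, and 12 of the 27 had a positive difference. Klrb1c, encoding the sorting antigen NK1.1, read 491 and 460.0 RPKM without IL-21 and 142 and 151 RPKM with it (adjusted p = 0.0556). Its neighbour Klrb1a (NKR-P1A) read 193 and 126 RPKM against 31.1 and 29.6 RPKM (adjusted p = 0.150). Ncr1, encoding the activating receptor NKp46, read 420.4 and 324 RPKM against 155 and 153 RPKM (adjusted p = 0.204). The other 2 were Fcgr3, encoding CD16, at 240.5 and 264 against 84.9 and 91.8 RPKM (adjusted p = 0.150), and Klrc2, encoding NKG2C, at 37.3 and 39.4 against 15.9 and 16.5 RPKM (adjusted p = 0.193). In contrast Klrk1, encoding NKG2D, read 296 and 309 RPKM against 341 and 284 RPKM, with overlapping libraries. Genes of the Klr family resemble each other, so reads may be shared between them.

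Of 30 NK cell transcription factor genes with a count 16 were tested, and the filter keeps genes that are high in 1 arm, such as Prdm1. The median was 0.39 over the 16 and 0.49 over the 30. Of the 16, 4 were higher by the unadjusted rule and 0 lower, beside 4.04% and 3.1% of all genes tested. Besides Prdm1 and Batf these were Irf8 (6.82 and 17.9 against 52.5 and 74.5 RPKM, adjusted p = 0.123) and Nfil3 (15.2 and 8.71 against 31.2 and 24.6 RPKM, adjusted p = 0.490), both known to be needed in NK cell development. Tbx21 and Eomes, the T-box factors of NK cells, gave overlapping libraries for Tbx21 (14.7 and 34.8 against 19.1 and 40.1 RPKM) and lower values for Eomes (49.5 and 61.2 against 24.0 and 44.2 RPKM, adjusted p = 0.769).

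In the lists for lipid synthesis, the amino acid response and endoplasmic reticulum stress 0 genes passed the adjusted test, and the counts that follow are by the unadjusted rule. Of all genes tested, 4.04% were higher and 3.1% lower by that rule. Of 12 cholesterol and fatty acid synthesis genes tested, 6 were higher and 0 lower, with a median of 1.21, against 0.56 over all 31 with a count. Cyp51, a demethylase of sterol synthesis, read 2.68 and 2.55 RPKM against 11.1 and 20.4 RPKM (adjusted p = 0.0754). Of 15 amino acid response genes tested, 7 were higher and 0 lower, with a median of 0.85, against 1.56 over all 27 with a count. Asns, encoding asparagine synthetase, read 15.9 and 9.08 RPKM against 62.4 and 96.6 RPKM (adjusted p = 0.0905). Of 28 endoplasmic reticulum stress genes tested, 7 were higher, 0 were lower and 27 had a positive difference. The median was 0.77, beside −0.02 over all genes tested. The chaperone gene Hspa5 (BiP) read 93.3 and 82.0 RPKM against 204 and 329.8 RPKM (adjusted p = 0.107). Values of Asns with the inhibitor were 31.2 and 71.3 RPKM, and those of Hspa5 were 221 and 172 RPKM.

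Of 63 respiratory chain genes tested, 2 were higher by the unadjusted rule (beside 4.04% of all genes tested) and 0 lower. Both + IL-21 libraries lay above both − IL-21 libraries in 9 of the 63, beside 17.6% of all genes tested. A positive difference was seen in 53, often with overlapping libraries, and the median was 0.35. Without any scaling between libraries the median of all genes would lie at −0.25, so small shifts of this size depend on the scaling. Of 18 glycolysis and hypoxia genes tested 4 were higher by the unadjusted rule (beside 4.04%), among them Ldha (109.7 and 173 against 209 and 390.3 RPKM, adjusted p = 0.490). The 76 cytosolic ribosomal protein genes tested had a median of −0.01, and 0 met the unadjusted rule in either direction. Of 19 mitosis genes tested 2 had a positive difference, and the median was −0.27. By the unadjusted rule 0 were higher and 2 were lower, beside 4.04% and 3.1% of all genes tested. The 2 lower genes were Cdc20, an activator of the anaphase-promoting complex (17.3 and 29.1 against 1.67 and 6.28 RPKM, adjusted p = 0.289), and Cenpa, the centromeric histone (23.02 and 19.7 against 14.2 and 6.02 RPKM, adjusted p = 0.538). Of 24 interferon-stimulated genes tested, 2 were higher and 2 lower by the unadjusted rule (beside 4.04% and 3.1%), with a median of −0.15. Apart from them, Ifitm3 read 4.21 and 1.46 RPKM against 45.7 and 97.5 RPKM (adjusted p = 0.0905) and Ifitm1 0 and 5.35 RPKM against 215 and 252 RPKM (adjusted p = 0.184), in a family of near-identical genes.

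**Figure D4:**
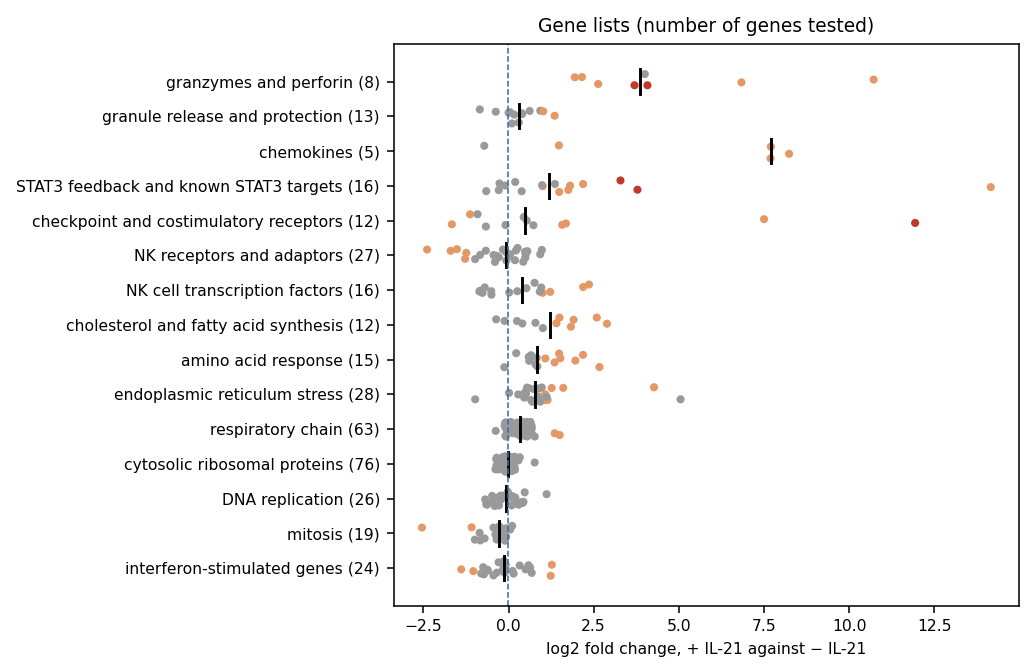
Log2 fold changes with IL-21 for the tested genes of 15 of the lists, 1 point per gene, with a black bar at the list's median, a dashed line at the median of all genes tested (−0.02), red for genes that passed the adjusted threshold, orange for those with an unadjusted p under 0.05 and a change of over 2-fold, and grey for the rest. Of the lists drawn, the granzyme and chemokine lists have the highest medians, 3.85 and 7.69, and the mitosis list the lowest, −0.27.

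Beyond these groups, 3 further genes stood highest by p among those that did not pass. Hsd17b10, a mitochondrial dehydrogenase, read 149.8 and 97.1 RPKM against 1065 and 653 RPKM (adjusted p = 0.0524). P2ry14, a receptor for UDP-glucose, read 17.5 and 14.8 RPKM against 63.4 and 55.8 RPKM (adjusted p = 0.0524). Timp1, an inhibitor of metalloproteinases, had no read in either − IL-21 library and none with the inhibitor, and 45.4 and 16.3 RPKM with IL-21, at least 188-fold higher against a floor of 3 reads per library (adjusted p = 0.0524).

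On the lower side the 15 named genes of lowest p whose libraries did not overlap are given as values. Lpxn, encoding the adhesion adaptor leupaxin, read 252 RPKM in both − IL-21 libraries and 47.1 and 68.0 RPKM with IL-21 (adjusted p = 0.0524). St3gal6, a sialyltransferase, read 43.4 and 47.8 RPKM against 9.27 and 9.81 RPKM (adjusted p = 0.0524). Cd7, a surface antigen of T and NK cells, read 1044 and 1235 RPKM against 389 and 250 RPKM (adjusted p = 0.0824). These 3 were lower by several times in both + IL-21 libraries. Bcl2, the anti-apoptotic protein on which resting lymphocytes rely, read 77.5 and 99.7 RPKM against 23.1 and 32.3 RPKM (adjusted p = 0.0921). Pdcd4, an inhibitor of translation, read 99.7 and 139 RPKM against 35.5 and 32.5 RPKM (adjusted p = 0.0824). Qpct, a glutaminyl cyclase, had the widest difference of the 15, at 24.9 and 45.1 RPKM against 1.26 and 4.39 RPKM (adjusted p = 0.0824). Also in this set were Cdh1 (E-cadherin, 14.6 and 15.2 against 1.29 and 3.06 RPKM, adjusted p = 0.0921), Sesn1 (a stress-inducible inhibitor of mTORC1, 38.9 and 66.7 against 11.4 and 13.96 RPKM, adjusted p = 0.0824) and Ypel3 (332 and 449 against 137 and 132 RPKM, adjusted p = 0.0864). The remaining members were Klrb1c, Adgre5, Adi1, Ms4a6b, Pde4b and Ttc39c, with adjusted p from 0.0556 to 0.0921.

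Genes that the study grouped by STAT3 dependence were chosen on these same libraries and are not independent evidence of a direction. Of the 17 genes it called STAT3 dependent, all were tested, 4 rose (Gzmb, Gadd45g, Prf1 and Spp1), 15 met the unadjusted rule and the median was 4.002. Of the 11 it called STAT3 independent, 1 rose (Ifng), 10 met the unadjusted rule and the median was 1.69. Of its 26 stage markers of trNK differentiation 23 were tested, of which 4 rose, 10 were higher and 2 lower by the unadjusted rule. The 2 lower markers were Bcl2 and Cd27. Over all genes tested, 0.289% rose, and 4.04% were higher and 3.1% lower by the unadjusted rule. The list mixes markers that the paper has increasing along differentiation with markers it has decreasing, so the counts alone give no direction. Among the higher markers, the paper has Ifng and Il21r decreasing along differentiation and the others increasing. It has both lower markers decreasing. Klrg1, an inhibitory receptor of mature NK cells, read 116 and 204 RPKM against 156 and 129.7 RPKM, with overlapping libraries.

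A separate experiment of the series cultured trNK of gd6.5 with IL-15, with or without IL-21 at the same dose, for 6, 24 and 72 h, with 2 libraries an arm and another cDNA kit. It shares no library with the 3-day culture. Its 72 h arms match the 3 days by time. Of the 12 genes that rose, 9 were tested there and 6 of them rose at 72 h as well: Gzmb, Spp1, Ly6a, Gpr18, Bcl3 and Pltp. In that experiment 6.57% of genes rose at 72 h. The count of 6 fell to 1 without − IL-21 replicate 1 or + IL-21 replicate 1 of the 3-day culture and to 3 without − IL-21 replicate 2. Gzmb read 1143 and 704 RPKM without IL-21 and 4460 and 2607 RPKM with it at 72 h, a log2 rise of 1.94 (SE 0.36, adjusted p = 0.00724), which is a smaller fitted rise than the 3.70 of the 3-day culture. Ly6a read 12.003 and 0 RPKM against 819 and 1165 RPKM (adjusted p = 0.0189). Pltp had no read in either control and was at least 159.3-fold higher with IL-21. Gadd45g, Ifng and Prf1 did not pass at 72 h. Ifng read 122 and 1.19 RPKM against 156 and 110.3 RPKM there (adjusted p = 0.628), with 1 control library between the treated ones. Prf1 read 18.7 and 11.1 RPKM against 33.3 and 17.7 RPKM (adjusted p = 0.291). Ccl3 and Ccl4, low in both − IL-21 libraries of the 3-day culture, were high in both 72 h control libraries, at 2376 and 549 RPKM for Ccl3 and 8798 and 3293 RPKM for Ccl4. Ctla4, Il10, Gzmg and Timp1, with 1 or 0 reads without IL-21 in the 3-day culture, had no read in either 72 h control. With IL-21 they averaged 4.73, 0.547, 0.0155 and 0 RPKM at 72 h, in this order. Against the floor of 3 reads Ctla4 was at least 100.4-fold and Il10 at least 6.53-fold higher there.

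The correlation with the 3-day culture was higher at the earlier times of that experiment than at 72 h. Over the 2846 genes tested in both, the log2 differences with IL-21 correlated across genes with r = 0.664 (Spearman rho 0.493) at 6 h, r = 0.545 (rho 0.438) at 24 h and r = 0.189 (rho 0.129) at 72 h. Genes are not independent replicates, and within each experiment they share libraries and depth, so these are descriptions without a p, and the difference between the times was not tested. Of 86 genes lower in the 3-day culture by the unadjusted rule, 24 fell at 6 h (27.9%, beside 1.44% of all genes in both) and 17 at 24 h (19.8%, beside 1.37%), while 5 fell at 72 h (5.81%, beside 1.12%) and 3 rose. At 6 h 83 of the 86 had a negative difference (96.5%, beside 50.5% of all genes) and at 72 h 50 did (58.1%, beside 44.8%). Of 111 genes higher by the unadjusted rule, 14 rose at 6 h (12.6%, beside 0.703%), 5 at 24 h (4.5%, beside 0.351%) and 25 at 72 h (22.5%, beside 6.18%). Of the 111, 0 fell at 6 h, 1 at 24 h and 0 at 72 h, and the 1 was Ccl5, at 936 and 999 RPKM without IL-21 and 307 and 296 RPKM with it (adjusted p = 0.0215). Over all genes of the time course fit, 0.599% rose at 6 h and 0.343% at 24 h. The 14, 5 and 25 genes were 70%, 50% and 14.2% of all genes in both that rose at these times.

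Of the 15 lowest-p genes on the lower side 11 were tested in the time course, and 9 fell at 6 h (Bcl2, Cd7, Klrb1c, Lpxn, Ms4a6b, Pdcd4, Qpct, St3gal6 and Ypel3), 6 at 24 h and 0 at 72 h, when 8 of the 11 still had a negative difference. Across the whole time course fit, 1.37% of genes fell at 6 h, 1.31% at 24 h and 1.51% at 72 h. Klrb1c read 277 and 314 RPKM without IL-21 and 101.9 and 101.4 RPKM with it at 6 h, a fall with an adjusted p of 0.00155. At 72 h it read 668 and 707 RPKM against 418 and 508 RPKM, an adjusted p of 0.0330 with a fold under 2. Cd7 read 398 and 366 RPKM against 97.9 and 109 RPKM at 6 h (adjusted p = 0.00179) and 2165 and 1551 RPKM against 3578 and 2452 RPKM at 72 h (adjusted p = 0.0635), so its 72 h difference has the other sign. Bcl2 read 11.1 and 13.4 RPKM against 3.95 and 3.77 RPKM at 6 h (adjusted p = 0.00168) and 32.3 and 31.2 RPKM against 17.9 and 20.3 RPKM at 72 h (adjusted p = 0.0271, with a fold under 2). Qpct read 94.0 and 115 RPKM against 14.2 and 15.0 RPKM at 6 h (adjusted p = 0.00168) and 176 and 275 RPKM against 89.1 and 154 RPKM at 72 h (adjusted p = 0.0761). On the higher side, of the 9 of the 12 genes that were tested, 5 rose at 6 h (Gzmb, Prf1, Spp1, Gadd45g and Gpr18), 3 at 24 h (Gzmb, Prf1 and Ly6a) and 6 at 72 h. At 6 h Prf1 read 17.96 and 11.9 RPKM against 67.3 and 85.9 RPKM (adjusted p = 0.0205), and Gadd45g 62.2 and 69.0 RPKM against 323 and 375 RPKM (adjusted p = 0.0471).

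The control libraries of the 72 h time point stood apart. They held 10728 and 11671 genes with a count and 8.44% to 11.8% mitochondrial counts, against 12004 to 14004 genes and 4.37% to 5.73% in the 72 h arms with IL-21. The part of this in the lower correlation at 72 h was not tested.

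The effect of IL-21 in the 3-day culture was tested directly against that at 72 h of the time course, in 1 fit of both experiments. Of 4446 genes, 26 differed (0.585%). The count was 0 with filterByExpr, 0 with the replicate number as a block within each experiment and 0 without any 1 of the 4 culture libraries, 132 with DESeq2, 26 with limma-voom, and 485 and 142 without replicate 1 or 2 of the 72 h time course controls. The signed difference, culture minus time course, was above 0 for 2 of them (0.045%) and below 0 for 24 (0.54%). The 2 were AI597479 and Eya3, which read lower with IL-21 at 72 h of the time course and slightly higher with it in the culture. Of the 26 genes, 21 had no read in either 72 h time course control. Ccnb2, encoding cyclin B2, read 65.3 and 50.1 RPKM without IL-21 and 38.4 and 26.5 RPKM with it in the 3-day culture. In the time course it was at 0 in both 72 h controls and at 47.4 and 49.6 RPKM with IL-21, at least 675.7-fold higher. Among the 12 genes that rose, Pltp alone differed between the experiments, with no read in the 72 h time course controls.

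The 3-day culture was last set beside the stages that trNK pass through in vivo, sorted at gd8.5 by CD55 and 4-1BB into trNK-V (low), trNK-D (intermediate) and trNK-T (high), with 2 libraries each. These libraries too are separate from the culture. From trNK-V to trNK-T 8.07% of the genes tested rose and 13.1% fell. Of the 12 genes that rose with IL-21, 8 were tested and 5 rose from trNK-V to trNK-T: Gzmb, Prf1, Spp1, Gadd45g and Ctla4. Leaving out 1 culture library gave counts of 1 (− IL-21 replicate 1), 3 (− IL-21 replicate 2), 4 (+ IL-21 replicate 1) and 9 (+ IL-21 replicate 2). Gzmb read 1375 and 1851 RPKM in trNK-V, 4680 and 8018 RPKM in trNK-D and 7890 and 13062 RPKM in trNK-T. Ctla4 read 1.62 and 7.45 RPKM, then 14.6 and 22.8 RPKM, then 57.6 and 67.2 RPKM (adjusted p of trNK-T against trNK-V 0.00926). The 3 stages did not overlap in Ctla4, while trNK-D and trNK-T overlapped in Gzmb. Ifng and Gpr18 fell from trNK-V to trNK-T. Ifng read 47.0 and 95.03 RPKM in trNK-V and 20.2 and 21.8 RPKM in trNK-T (adjusted p = 0.0138), and Gpr18 68.3 and 78.6 RPKM against 16.4 and 24.8 RPKM (adjusted p = 0.0180). Ly6a read 0.958 to 24.8 RPKM in the 6 subset libraries, a level set within that experiment.

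Of 138 genes higher with IL-21 by the unadjusted rule and tested in the subsets, 56 rose from trNK-V to trNK-T (40.6%, beside 6.99% of the 3764 genes in both) and 17 fell. They are 21.3% of the genes in both that rose to trNK-T. Of 106 lower genes, 61 fell (57.5%, beside 11.7%) and 3 rose, and the 61 are 13.9% of those that fell. From trNK-V to trNK-D, where 12 genes rose (0.256%) and 3 fell (0.0641%) in all, 6 of the 138 rose and 1 of the 106 fell. The genes that went opposite ways include Ccl3 and Ccl4, higher in the + IL-21 libraries and falling from trNK-V to trNK-T, with Ccl4 at 974 and 2189 RPKM in trNK-V and 188 and 99.0 RPKM in trNK-T (adjusted p = 0.0151). Il21r, with a higher level in the + IL-21 libraries, likewise fell to trNK-T, from 48.5 and 53.4 RPKM to 13.9 and 6.71 RPKM (adjusted p = 0.00698). On the lower side 12 of 14 tested lowest-p genes fell to trNK-T, among them Bcl2, from 72.1 and 66.2 RPKM to 24.7 and 18.1 RPKM (adjusted p = 0.00505), and Cd7, from 2083 and 2637 RPKM to 234 and 95.8 RPKM (adjusted p = 0.00359). Klrb1c fell as well, from 285 and 369 RPKM to 106 and 95.4 RPKM (adjusted p = 0.00518).

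**Figure D5:**
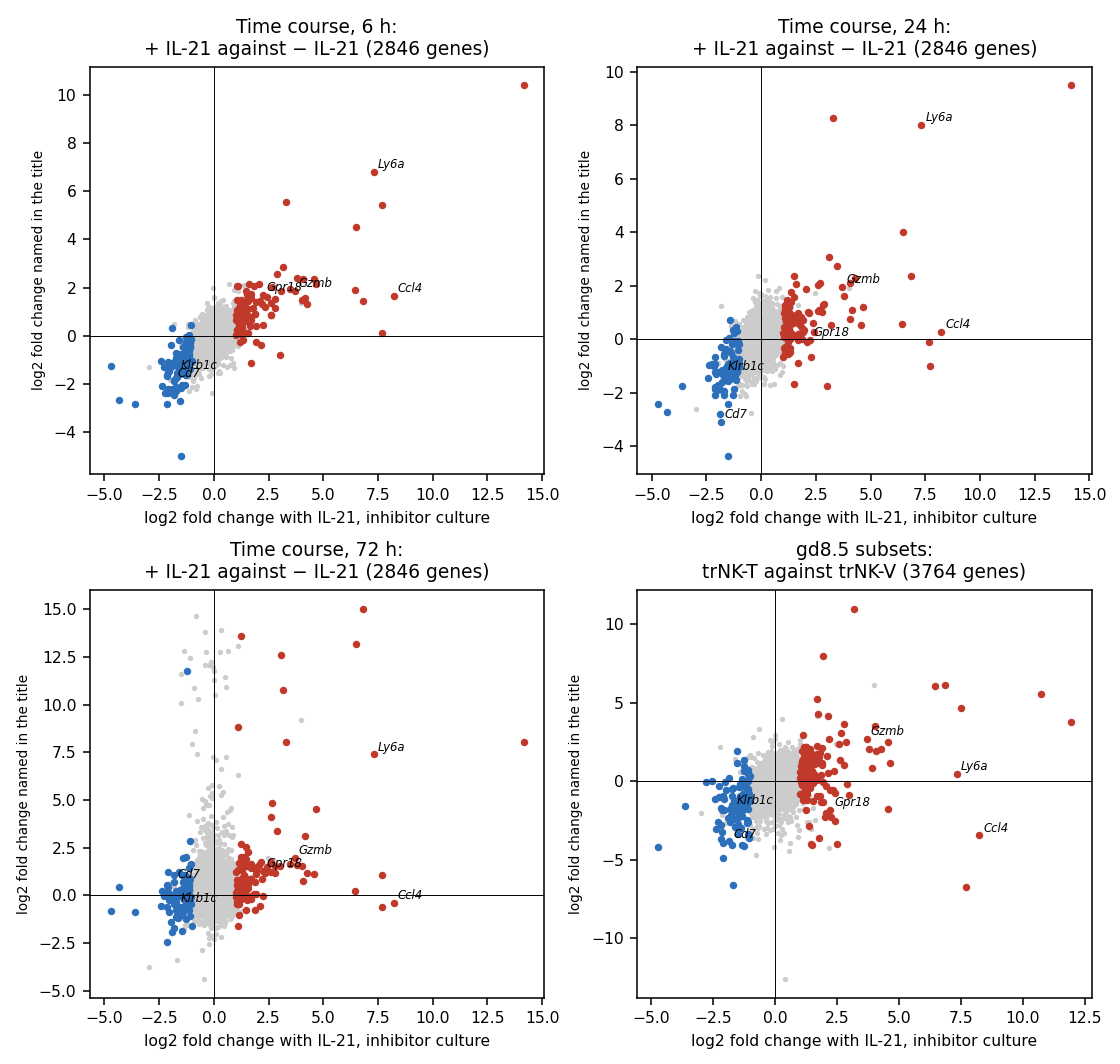
Log2 fold change with IL-21 in the 3-day culture (x axis) against the log2 fold change in the time course at 6, 24 and 72 h and of trNK-T against trNK-V at gd8.5 (y axes), 1 point per gene tested in both, with genes that meet the unadjusted rule coloured red (higher) and blue (lower). At 6 h (r = 0.664) most coloured points keep their sign, with a median on the y axis of 0.98 for red and −1.11 for blue. At 72 h (r = 0.189) the points scatter, and the genes far above 0 have no or few reads in the control libraries. The fitted size of those genes depends on the prior count.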

How the data were processed

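Bulk RNA-Seq of 4 libraries (2 − IL-21, 2 + IL-21) was compared, in a fit with the 2 iSTAT3 libraries of the same culture. Per the labels the authors aligned reads with HISAT2 2.1.0 to mm10 and counted them with featureCounts of Subread, while the methods name RSEM. Files deposited by the authors hold unnormalized counts, integer reads for each gene, with its exons and length alongside. Whether counting used strand is not given in the sources used here, so overlapping and antisense genes cannot be told apart. cDNA came from SMART-Seq HT for the culture and the subsets and from another kit for the time course.

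From these counts RPKM were computed. A gene entered a fit where some group had more than 10 RPKM in each of its libraries, the filter of the study's methods. The main test was edgeR's quasi-likelihood test (edgeR 4.0.16, R 4.3.3) with TMM scaling and Benjamini-Hochberg adjustment over all genes tested. A call needed an adjusted p under 0.05 together with a change of over 2-fold. The time course (16 libraries) and the subsets (6 libraries) were fitted separately, and the difference between cultures in 1 fit of the 72 h groups. limma 3.58.1 and DESeq2 1.42.0 were alternatives. RPKM printed are on TMM-scaled library sizes within an experiment and are not comparable between experiments. Scripts were tested on simulated data with 200 changed genes. At 4-fold 73% of these were recovered and 7.01% of the calls were false, and at 16-fold 99% and 1.49%. The simulated libraries were drawn independently, without the correlation of same-numbered libraries given below. Promoters are RefSeq windows (GRCm38.p6).

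The comparison, the 42 gene lists and the rules were chosen with earlier results of these data known. Named by rule were the study's genes, the 15 largest rises and falls among non-overlapping genes, filled by lowest p, up to 4 called genes a list or else the 2 of lowest p, a fixed set of STAT3 targets and the 5 genes of lowest p each way in the difference between cultures. Further list genes, among them Il10, Cdkn1a, Ltb, Metrnl, Rab27a, Jak2, Ifngr1, Stat3, Cd160, Cd226, Fcgr3, Klrc2, Klrk1 and Ldha, were chosen after their values were seen. Lists beside those described, with 0 genes that rose or fell, covered survival genes, NF-kB and immediate early genes, metallothioneins, cytoskeleton, heat shock proteins, MHC class I, homing, complement regulators, ribosome biogenesis, DNA replication and markers of neutrophils, erythroid cells, other innate lymphoid cells and circulating NK cells. Some genes that these rules name are not reported here.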

Additional observations from a re-analysis of the deposited data

Results flagged for a closer look

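The effect of IL-21 differed between the 3-day culture and the 72 h arms of the time course for 26 genes, by a test of the difference itself. This rested on the settings: the count was 0 with filterByExpr, with the replicate number as a block and without any 1 of the 4 culture libraries. The signed difference, culture minus time course, was above 0 for AI597479 (adjusted p of the difference 0.0337) and Eya3 (0.0337), whose levels differed more with IL-21 in the time course. AI597479 read 3.81 and 3.21 RPKM without IL-21 and 4.07 and 4.09 RPKM with it in the 3-day culture, and 13.7 and 15.5 RPKM against 0.122 and 0.169 RPKM at 72 h of the time course. Eya3 read 5.88 and 5.34 RPKM against 8.96 and 7.55 RPKM in the culture and 2.05 and 1.07 RPKM against 0.00996 and 0 RPKM in the time course.

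Among genes with a difference below 0, Ccnb2, Nrm, Pmvk, Tnfsf4 and Yif1b each had an adjusted p of the difference of 0.0263, and Pltp had 0.0337. All 6 were at 0 in both 72 h time course controls. Pmvk, a kinase of the mevalonate pathway, read 18.2 and 15.9 RPKM against 18.3 and 13.2 RPKM in the culture and was at least 124.1-fold higher with IL-21 in the time course. Nrm, a protein of the inner nuclear membrane, read 33.5 and 38.7 RPKM against 12.8 and 17.9 RPKM in the culture and was at least 91.62-fold higher in the time course. Yif1b, a protein of vesicle transport, read 40.7 and 39.0 RPKM against 25.8 and 37.1 RPKM in the culture and was at least 182.1-fold higher in the time course. Tnfsf4, encoding OX40 ligand, read 37.9 and 38.9 RPKM against 98.1 and 81.0 RPKM in the culture and was at least 324.9-fold higher in the time course. The part that the low gene number of those 72 h controls had in these differences was not tested.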

How the results depend on the processing

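With 2 libraries an arm the calls depended on the filter and the test. The 12 called genes (12 higher, 0 lower) became 146 (106 higher, 40 lower) without the RPKM filter, 1 (1 higher) with RPKM above 1, and 0 with edgeR's filterByExpr, where 378 genes were higher and 236 lower by the unadjusted rule. DESeq2 gave 162 (103 higher, 59 lower), limma-voom 18 (17 higher, 1 lower), the limma trend on log2(RPKM + 1) 40 (29 higher, 11 lower) and the unadjusted rule 297 (168 higher, 129 lower). Upper quartile scaling gave 9, without Bcl3, Gpr18 and Spp1, and a fit of the 4 libraries compared gave 8, of which 4 were among the 12. All 12 remained called under DESeq2, limma-voom, limma trend, RLE scaling and no filter. Leaving out 1 library gave 2 to 19 calls (2 to 17 higher, 0 to 2 lower). The cause of these changes was not tested.

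For the difference between the cultures, 26 genes became 0 with filterByExpr, 132 with DESeq2, 180 in a fit of all 22 libraries and 0 to 485 leaving out 1 library. The 6 called genes also called in the time course became 33 with DESeq2, 47 by the unadjusted rule and 1 to 6 leaving out 1 library. The 5 also called in trNK-T became 72 with DESeq2, 8 with limma-voom, 122 by the unadjusted rule and 1 to 9 leaving out 1 library.

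The replicate numbers of the labels are not stated to pair the samples. Same-numbered deviations correlated at 0.598 between − IL-21 and + IL-21, and at −0.456 and −0.509 with iSTAT3. With the replicate number as a block the calls were 1 (1 higher), and the difference between cultures had 0. Chosen after seeing the data, a block in the 4 libraries compared gave 316 calls (182 higher, 134 lower), and a block with the iSTAT3 numbers crossed gave 225 (144 higher, 81 lower).

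Genes below the threshold whose log2 difference changed sign when 1 library was left out ranged from −1.0003 to 0.17 (Cish), −0.40 to 0.085 (Pmvk), −0.42 to 0.34 (Klrg1), −0.57 to 0.94 (Socs1), −0.40 to 1.05 (Tbx21) and −0.11 to 0.14 (Klrk1). Klrk1 was also at −0.0059 with upper quartile scaling and −0.15 in the limma trend fit.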
